A study of Mus musculus with 6 samples.

Results

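The genes of the proteasome were examined in RNA sequencing libraries of cells labelled as mouse vascular smooth muscle cells (VSMC). Cells of that type contract the walls of blood vessels. Members were all protein-coding genes whose symbol has the form Psma, Psmb, Psmc, Psmd, Psme, Psmf or Psmg followed by a number, which gave 50 of the 56393 genes in the table. The cells were labelled primary VSMC and gave 3 libraries of a Nono knockout (KO) and 3 of the wild type (WT). Both groups grew in DMEM with 20% fetal bovine serum and antibiotics and received no further treatment. The product of Nono binds RNA and DNA and is a core component of the nuclear bodies called paraspeckles. The labels and protocols used here do not give how Nono was inactivated, the age of the mice or whether the libraries of a group came from separate cultures or animals. The p-values below therefore measure only the spread between these libraries, which may be technical. The design asks how loss of Nono changes the levels of transcripts.

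The proteasome is the barrel-shaped protease that degrades ubiquitin-tagged proteins. Its 20S core stacks rings of alpha subunits, which form the gate, around rings of beta subunits, of which those encoded by Psmb5, Psmb6 and Psmb7 cut peptide bonds. The 19S cap binds ubiquitin chains, removes them and uses a ring of ATPases to unfold the substrate and push it into the core. In immune cells, and in many other cells exposed to interferon gamma, newly built cores take up Psmb8 in place of Psmb5, Psmb9 in place of Psmb6 and Psmb10 in place of Psmb7. The product is the immunoproteasome, known for making peptides that fit MHC class I molecules.

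Library totals ranged from 56529170 to 61670083 counts. Levels are given as CPM, counts scaled by library size and TMM factors, which allow one gene to be compared across libraries, and as the FPKM deposited by the authors where different genes are compared, since FPKM divides by transcript length. The targeted gene Nono was at 523.1, 502.4 and 519.2 CPM in WT and at 55.97, 54.8 and 51.1 CPM in KO. The groups also differed in 4 Y-linked transcripts, whose sum was 149.9 to 163.3 CPM in KO and 0 to 0.0795 CPM in WT. That difference separates the same libraries as genotype, so the part of each cannot be told apart in any comparison below. Of 8 smooth muscle markers 5 were higher and 2 lower in KO, with a summed level of 67.5 to 76.5 CPM in WT and 244.7 to 249.0 CPM in KO. Smtn, with a mean of 47.82 CPM, made up most of the WT sum. Acta2 rose from a WT mean of 16.43 to a KO mean of 161.3 CPM. Tagln rose from a mean of 0.859 to 15.01 CPM and Cnn1 from 0.0212 to 3.493 CPM. Des fell from a mean of 4.292 to 0.848 CPM. Myocd, which drives the contractile program, fell from a mean of 0.428 CPM to 0 counts. Myh11, the smooth muscle myosin, lay under 1 CPM in every library. Markers were thus low in both groups, Tagln and Cnn1 in WT and Myocd in KO, so the cell type is taken from the labels.

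Most proteasome genes were lower in KO, and the immunoproteasome genes Psmb8 and Psmb10 were among the few that were higher. Of the 50 members 48 passed the filter on low counts. Of these 34 (70.8%) were lower and 9 (18.8%) higher in KO at an adjusted p under 0.05 (edgeR quasi-likelihood test), and 5 did not pass. Over all 18732 tested genes the shares were 34.2% lower and 35.1% higher, or 69.3% in either direction. The median log2 fold change of the members (KO minus WT) was -0.63, beside 0.03 over all tested genes. With scaling by total counts these medians were -0.76 and -0.10. That scaling shifts all genes by nearly the same amount, so it cannot test the distance between the medians. In 44 of the 48 members (91.7%) the 3 values of KO and the 3 of WT did not overlap, against 75.5% of all tested genes, with 34 members lower and 10 higher, beside 37.1% and 38.4% of all tested genes. The changes were mostly moderate: 13 members (27.1%) were called and at least 2-fold lower, against 19.8% of all tested genes, and 2 (4.17%) were called and at least 2-fold higher, against 21.6%. Since these are bulk samples, a lower level may mean less RNA per cell or fewer cells that express the gene, and the difference between these cannot be seen here.

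**Figure D1:**
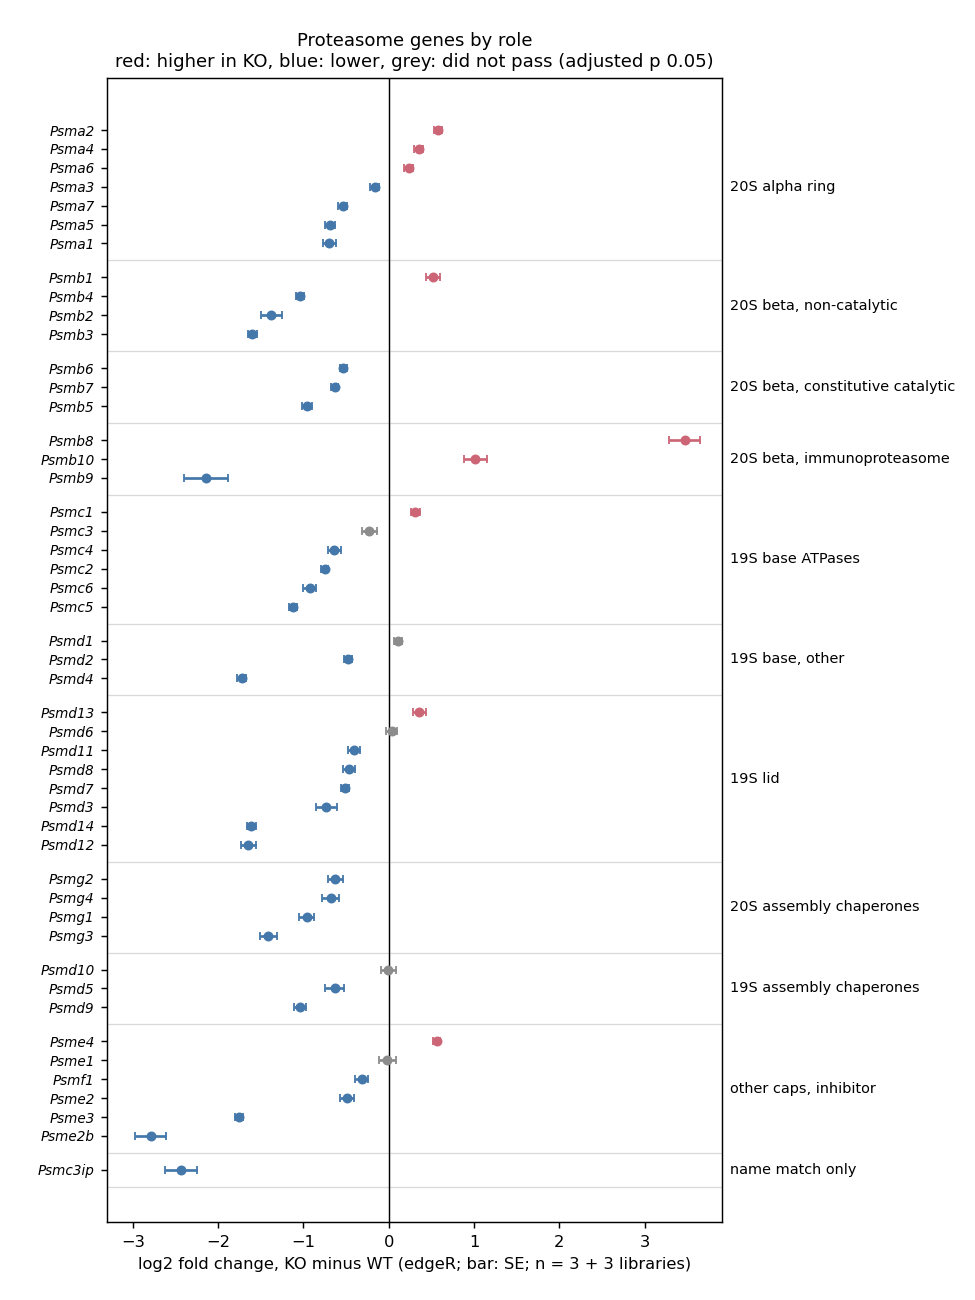
Log2 fold change (KO minus WT, edgeR) of each of the 48 tested proteasome genes on the x axis, grouped by role on the y axis, with bars for the standard error. Points range from -2.79 (Psme2b) to 3.47 (Psmb8), and every role except the immunoproteasome subunits has more genes called lower than higher.

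The constitutive catalytic subunits all fell in KO. Psmb5, the chymotrypsin-like subunit, was at 198.1, 187.9 and 202.6 CPM in the WT libraries and at 94.5, 103.5 and 104.3 CPM in the KO libraries. All KO values lay below all WT values, and the log2 fold change was -0.96 ± 0.06 (SE, edgeR adjusted p = 1.10e-06). Psmb6, the caspase-like subunit, was at 135.5, 140.1 and 139.8 CPM in WT and at 95.1, 96.3 and 96.1 CPM in KO. Its groups were again separate, with a log2 fold change of -0.53 ± 0.04 (SE, edgeR adjusted p = 8.86e-06). Psmb7, the trypsin-like subunit, was at 154.5, 154.0 and 154.0 CPM in WT and at 101.6, 96.8 and 99.5 CPM in KO, so it too was lower in every KO library (a log2 change of -0.64, SE 0.04, and edgeR adjusted p = 2.92e-06).

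The immunoproteasome subunits did not move together. Psmb8, which replaces Psmb5, was at 0.967, 0.984 and 1.05 CPM in WT and at 9.67, 13.3 and 10.3 CPM in KO. It rose in every KO library, by 11.1-fold (a log2 change of 3.47, SE 0.18, and edgeR adjusted p = 5.97e-07), which was the largest increase among the 48 tested members. Psmb10, which replaces Psmb7, was at 13.6, 10.8 and 15.3 CPM in WT and at 26.3, 26.1 and 27.8 CPM in KO. It rose 2.02-fold without overlap of the groups (a log2 change of 1.02, SE 0.13, and edgeR adjusted p = 1.54e-04). Psmb9, which replaces Psmb6, went the other way, from 10.2, 13.5 and 8.71 CPM in WT to 3.21, 1.76 and 2.38 CPM in KO. The highest KO value lay below the lowest WT value (a log2 change of -2.14, SE 0.26, and edgeR adjusted p = 1.02e-04).

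Some of these counts may be shared with overlapping genes, because the strand setting of the counting was not stated in the sources read. Psmb9 overlaps Tap1, which encodes a subunit of the peptide transporter of antigen presentation, on the opposite strand. Tap1 was at 32.9, 50.6 and 37.1 CPM in WT and at 29.9, 23.2 and 33.9 CPM in KO, where the groups overlapped and the test was not passed (a log2 change of -0.47, SE 0.19, and edgeR adjusted p = 0.0635, and 0.0160 with DESeq2). The antisense transcript annotated over Psmb8, Gm20496, had 0 counts in all 6 libraries. Gm16156, antisense to Psmb10, was between 0.87 and 1.89 CPM in all libraries. In all, 24 of the 50 members overlap another annotated gene.

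**Figure D2:**
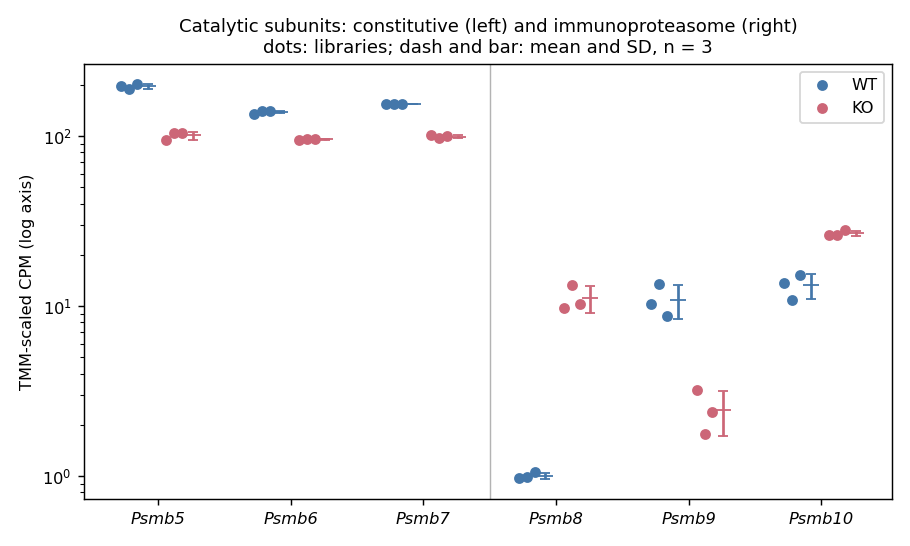
TMM-scaled CPM (log axis) of the 3 constitutive and the 3 immunoproteasome catalytic subunits in each library, WT in blue and KO in red, with the mean and SD of 3 libraries. The KO libraries lie below the WT libraries for Psmb5, Psmb6, Psmb7 and Psmb9 and above them for Psmb8 and Psmb10.

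Set against each other, the catalytic subunits differed in balance between the groups. The summed CPM of Psmb8, Psmb9 and Psmb10 was 5.08%, 5.24% and 5.05% of that of Psmb5, Psmb6 and Psmb7 in the WT libraries and 13.5%, 13.9% and 13.5% in the KO libraries. Both sums changed. That of Psmb8, Psmb9 and Psmb10, with Psmb11 (5 counts in each group), was 24.9 to 25.3 CPM in WT and 39.2 to 41.3 CPM in KO. The sum of Psmb5, Psmb6 and Psmb7 was 481.9 to 496.5 CPM in WT and 291.3 to 299.9 CPM in KO. The 3 KO ratios lay above the 3 WT ratios, a 2.66-fold difference that is given as a description without a test. Per length, from the deposited FPKM, the same ratio was 4.22% ± 0.16 in WT and 9.84% ± 0.28 in KO (SD, n = 3 each). The constitutive subunits thus remained the more abundant ones in both groups. By pair, Psmb8 was at 0.314% ± 0.041 of the FPKM of Psmb5 in WT and at 6.61% ± 1.11 in KO. Psmb10 was at 9.78% ± 2.09 of the FPKM of Psmb7 in WT and at 25.8% ± 1.59 in KO. For Psmb9 over Psmb6 the order was reversed, with 4.93% ± 1.32 in WT and 1.54% ± 0.44 in KO. The make-up of the immunoproteasome subunits shifted accordingly: of their summed FPKM, Psmb9 held 38.9% ± 11.02 in WT and 5.97% ± 1.92 in KO, and Psmb8 3.09% ± 0.27 in WT and 23.8% ± 4.24 in KO.

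**Figure D3:**
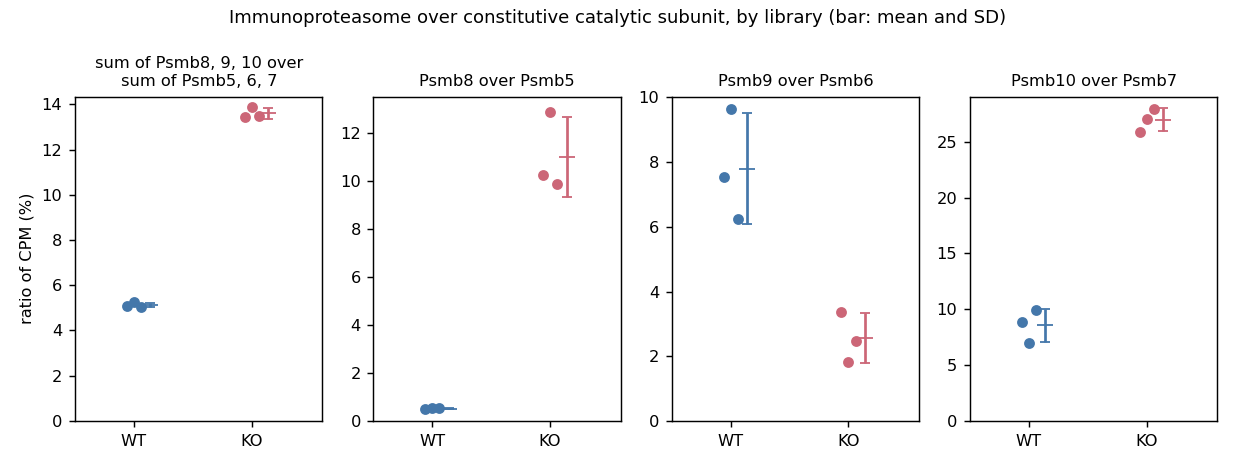
Ratio of CPM, in percent, of immunoproteasome to constitutive catalytic subunits in each library (summed over the 3 subunits, then for each replacing pair), with the mean and SD of 3 libraries per group and axes that start at 0. The summed ratio is 5.05% to 5.24% in WT and 13.5% to 13.9% in KO, and Psmb9 over Psmb6 alone is lower in KO.

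Psmb11, the thymus-specific catalytic subunit, had 5 counts over the WT libraries and 5 over the KO libraries and was removed by the filter. Psma8, the testis-specific alpha subunit, had 0 counts in all libraries, which allows up to 0.0161 CPM in WT and 0.0174 CPM in KO (3 counts over the group, counting error only).

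The stretches before the annotated start of 6 genes are shown. They set the replacing pairs Psmb5 and Psmb8, and Psmb6 and Psmb9, beside each other. Psmb3 and Psmd4 follow, which were among the members at least 3-fold lower in KO. Psmd12, Psmd14, Psme3, Psmc3ip and Psme2b were also at least 3-fold lower and are not shown. Their stretches held no match to the first motif below. Each stretch shown is the 250 bases upstream of the start in RefSeq on build GRCm38.p6, 5′ to 3′ on the gene's strand. The positions are chr14:54617996-54618245 on the minus strand for Psmb5, chr17:34197945-34198194 on the plus strand for Psmb8, chr11:70525107-70525356 on the plus strand for Psmb6, chr17:34187331-34187580 on the minus strand for Psmb9, chr11:97703184-97703433 on the plus strand for Psmb3 and chr3:95042615-95042864 on the minus strand for Psmd4. Capitals mark matches on either strand to 4 motifs: the core of the interferon-stimulated response element (ISRE), which is GAAA, any 2 bases and GAAA again; TGACNNNGC, the core of the antioxidant response element, a motif also bound by NRF1 (Nfe2l1), which drives proteasome genes; CCAAT, the CCAAT box; and GGGCGG, the GC box. In these 6 stretches no match to one motif overlaps a match to another.
Psmb5: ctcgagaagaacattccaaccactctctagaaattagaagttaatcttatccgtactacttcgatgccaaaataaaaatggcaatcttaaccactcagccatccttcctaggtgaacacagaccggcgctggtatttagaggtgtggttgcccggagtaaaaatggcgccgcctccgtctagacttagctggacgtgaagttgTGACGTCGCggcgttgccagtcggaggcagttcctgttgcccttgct
Psmb8: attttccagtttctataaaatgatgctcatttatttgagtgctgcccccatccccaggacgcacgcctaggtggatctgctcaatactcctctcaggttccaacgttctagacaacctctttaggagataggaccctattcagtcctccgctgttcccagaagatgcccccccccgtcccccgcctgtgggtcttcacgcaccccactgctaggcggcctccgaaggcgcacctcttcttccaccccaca
Psmb6: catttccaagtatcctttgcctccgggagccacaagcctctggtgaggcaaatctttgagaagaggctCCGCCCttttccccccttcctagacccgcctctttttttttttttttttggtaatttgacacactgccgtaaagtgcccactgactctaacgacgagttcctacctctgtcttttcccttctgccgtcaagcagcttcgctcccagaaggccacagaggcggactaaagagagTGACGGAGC
Psmb9: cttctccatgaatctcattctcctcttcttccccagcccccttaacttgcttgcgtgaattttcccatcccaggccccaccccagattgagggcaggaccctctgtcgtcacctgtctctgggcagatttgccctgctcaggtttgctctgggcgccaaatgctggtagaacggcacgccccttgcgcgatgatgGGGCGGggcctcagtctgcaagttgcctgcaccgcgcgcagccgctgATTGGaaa
Psmb3: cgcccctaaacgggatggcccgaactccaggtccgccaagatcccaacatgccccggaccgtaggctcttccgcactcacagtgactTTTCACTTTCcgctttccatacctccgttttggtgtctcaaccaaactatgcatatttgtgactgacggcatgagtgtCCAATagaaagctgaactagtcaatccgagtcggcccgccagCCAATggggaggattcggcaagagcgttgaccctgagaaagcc
Psmd4: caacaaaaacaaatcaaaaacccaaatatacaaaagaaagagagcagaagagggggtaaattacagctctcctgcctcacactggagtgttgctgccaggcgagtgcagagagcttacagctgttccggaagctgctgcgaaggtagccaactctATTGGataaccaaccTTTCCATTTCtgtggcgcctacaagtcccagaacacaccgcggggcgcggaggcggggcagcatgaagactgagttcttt

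The constitutive Psmb5 and Psmb6 each held a TGACNNNGC match, Psmb9 held a CCAAT and a GGGCGG match, and Psmb8 held none of the 4 motifs in this window. Psmb10, which was higher in KO, and Psmb4, which was lower, are not shown and held none of them either. RefSeq promoters were found for 42 of the 50 members, and not for Psma8, Psmb1, Psmb2, Psmb7, Psmc3, Psmd3, Psmd7 and Psmg2. TGACNNNGC was present in 5 of the 42 (11.9%), namely Psmb5, Psmb6, Psmc6, Psmd9 and Psmd12, beside 10.2% of the 27025 promoters in the table. The ISRE core was present in 3 (7.14%), Psmb3, Psmd4 and Psmd9, beside 3.04%. CCAAT was in 15 (35.7%) beside 34.5%, and GGGCGG in 22 (52.4%) beside 32.9%. Of the members with TGACNNNGC or the ISRE core all were lower in KO, where 29 of the 42 were lower, 8 higher and 5 neither. Of the 15 with CCAAT 10 were lower and 3 higher, and of the 22 with GGGCGG 16 were lower and 3 higher. A link between motif and direction was not tested. A match is a run of letters and not a measured binding site.

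The alpha ring, whose subunits form the gate of the core, was split. Of its 7 tested genes 4 were lower and 3 higher, against 34.2% and 35.1% of all tested genes. The median log2 fold change of the 7 was -0.17. Psma1 was lowest relative to WT, at 119.8, 110.9 and 113.2 CPM in WT and 64.1, 77.3 and 70.8 CPM in KO. Psma2 was highest, at 81.3, 76.2 and 80.8 CPM in WT and 116.6, 119.9 and 118.1 CPM in KO. Both sets of libraries were separate, with log2 fold changes of -0.70 ± 0.08 for Psma1 and 0.57 ± 0.05 for Psma2 (SE, edgeR adjusted p = 5.14e-05 and 1.22e-05). Psma5 and Psma7 fell by 0.69 and 0.54 and Psma4 rose by 0.35 on the log2 scale. The calls of Psma6 and Psma3 were the weakest in the ring. Psma6 had a log2 fold change of 0.23 (edgeR adjusted p = 0.00620), or 0.10 with scaling by total counts (adjusted p = 0.129) and 0.12 by limma on the deposited FPKM (adjusted p = 0.0520). Psma3 had a log2 fold change of -0.17 (edgeR adjusted p = 0.0244), which did not pass without WT replicate 1 (adjusted p = 0.109), without WT replicate 3 (0.118) or without KO replicate 1 (0.0757), nor with the replicate number as a block (0.0531).

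Among the 4 non-catalytic beta subunits, which hold the core together, 3 fell and 1 rose, beside 34.2% and 35.1% of all tested genes. Psmb3 was at 268.7, 247.1 and 262.8 CPM in WT and 83.8, 88.0 and 85.3 CPM in KO, about 3-fold lower in every KO library (a log2 change of -1.60, SE 0.05, and edgeR adjusted p = 3.30e-08). Psmb2 fell by 1.38 and Psmb4 by 1.03 on the log2 scale. Psmb1 alone rose, from 131.2, 123.7 and 128.7 CPM in WT to 207.1, 169.1 and 173.7 CPM in KO (a log2 change of 0.52, SE 0.08, and edgeR adjusted p = 4.25e-04).

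In the 19S cap 12 of 17 subunits were lower and 2 higher, against 34.2% and 35.1% of all tested genes, and 3 did not pass. Of the 6 ATPases of the base, the ring that unfolds substrates, 4 fell. Psmc5 was at 218.8, 215.9 and 223.9 CPM in WT and 96.0, 100.9 and 105.0 CPM in KO, with all KO values below all WT values (a log2 change of -1.12, SE 0.05, and edgeR adjusted p = 1.88e-07). Psmc6, Psmc2 and Psmc4 fell by 0.93, 0.75 and 0.64 on the log2 scale. Psmc1 rose from 117.0 ± 1.56 to 145.3 ± 8.54 CPM (SD, n = 3 each; log2 fold change 0.31, edgeR adjusted p = 9.13e-04). Psmc3 was at 108.6 ± 6.19 CPM in WT against 92.8 ± 11.8 CPM in KO, a difference that did not pass (edgeR adjusted p = 0.0559), although it did with scaling by total counts (adjusted p = 0.00822), DESeq2, limma-voom, no filter on low counts and without KO replicate 2 (adjusted p = 0.00353).

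The ubiquitin receptor Psmd4 had the largest decrease of all core 19S genes. It was at 208.0, 195.3 and 202.5 CPM in WT and 59.1, 60.5 and 63.97 CPM in KO, 3.30-fold lower with no overlap (a log2 change of -1.72, SE 0.05, and edgeR adjusted p = 3.05e-08). The base scaffolds differed from it in size of effect: Psmd2 fell by 0.48 on the log2 scale, and Psmd1 was at 160.1 ± 7.78 CPM in WT against 172.1 ± 1.88 CPM in KO (3 libraries each, SD) without passing the test (edgeR adjusted p = 0.0853). In the lid, Psmd12 and Psmd14 stood out among 8 genes. Psmd12, a scaffold of the lid, was at 263.2, 257.8 and 254.0 CPM in WT and 75.2, 78.4 and 94.3 CPM in KO (a log2 change of -1.65, SE 0.08, and edgeR adjusted p = 5.10e-07). Psmd14, the enzyme that cuts ubiquitin chains from the substrate, was at 184.7, 170.1 and 180.5 CPM in WT and 56.7, 59.8 and 58.4 CPM in KO (a log2 change of -1.61, SE 0.05, and edgeR adjusted p = 4.15e-08). In both genes the KO values lay far below the WT values. Psmd3, Psmd7, Psmd8 and Psmd11 fell by 0.73, 0.52, 0.47 and 0.41 on the log2 scale. Psmd13 was called higher (39.3, 41.5 and 41.6 CPM in WT, 49.2, 56.5 and 51.4 CPM in KO, with a log2 change of 0.36, SE 0.07, and edgeR adjusted p = 0.00199). From the deposited FPKM its sign turned, with 30.0 ± 3.38 in WT and 27.2 ± 2.85 in KO (log2 difference -0.14, limma adjusted p = 0.276). Psmd6 was at 90.4 ± 5.78 CPM in WT against 92.5 ± 2.29 CPM in KO, a difference that did not pass (edgeR adjusted p = 0.661).

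Per length, the levels of the core subunits lay closer together in KO than in WT. The 31 subunits of the constitutive 20S core and the 19S cap, which the assembled particle holds in fixed proportion, ranged in WT from 24.9 FPKM (Psma2) to 302.1 FPKM (Psmb3). In KO they ranged from 25.5 FPKM (Psmd11) to 101.8 FPKM (Psma6). The highest level was 12 to 12.3 times the lowest in each WT library and 4.04 to 4.18 times the lowest in each KO library. Over the 31 genes the SD of the log2 FPKM was 0.796 in WT and 0.560 in KO. Over 2596 tested genes of the same range of mean FPKM it was 1.25 in WT and 1.07 in KO. Summed over the 31 genes, the CPM were 4962 ± 93.6 in WT and 3307 ± 62.1 in KO (SD, n = 3 each), 1.5-fold lower. Among the 2596 genes of like level 47.7% were lower in KO, against 22 of the 31 subunits (71.0%).

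**Figure D4:**
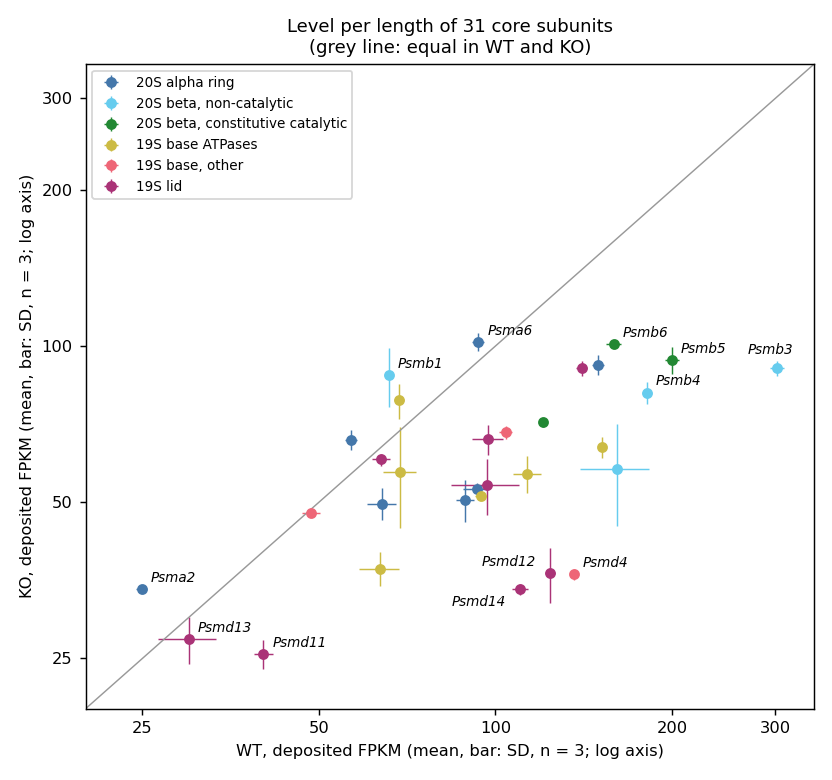
Deposited FPKM (mean of 3 libraries, bars SD, both axes log) of the 31 core subunits in WT on the x axis and KO on the y axis, coloured by role, with a grey line where both are equal. Most genes lie under the line, Psmb3 falls from 302.1 to 90.6 FPKM, and no subunit exceeds 101.8 FPKM in KO.

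Of the 7 assembly chaperones among the members 6 were lower in KO, beside 34.2% of all tested genes, and 1 did not pass. All 4 chaperones of the 20S core fell. Psmg3 was at 35.9, 28.9 and 32.6 CPM in WT and 11.9, 12.5 and 12.2 CPM in KO, with the largest decrease of the 4 (a log2 change of -1.41, SE 0.10, and edgeR adjusted p = 3.39e-06). Psmg2 had the smallest, from 60.0, 52.5 and 48.6 CPM to 34.8, 36.2 and 33.2 CPM (a log2 change of -0.63, SE 0.09, and edgeR adjusted p = 2.61e-04). Psmg1 and Psmg4 fell by 0.96 and 0.68 on the log2 scale. Among the chaperones of the 19S base, Psmd9 fell from 53.4 ± 3.08 to 25.9 ± 0.04 CPM and Psmd5 from 67.9 ± 8.84 to 43.7 ± 4.94 CPM (SD, n = 3 each). Psmd10, also known as gankyrin, was at 35.4 ± 3.81 CPM in WT against 35.3 ± 1.14 CPM in KO, a difference that did not pass (edgeR adjusted p = 0.969).

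The alternative caps, which open the core without ATP, went in different directions. Psme3, the nuclear PA28 gamma cap, was at 290.4, 275.8 and 295.2 CPM in WT and 83.2, 86.9 and 84.3 CPM in KO. It was 3.39-fold lower with no overlap (a log2 change of -1.76, SE 0.05, and edgeR adjusted p = 1.53e-08). Psme4, which encodes the cap PA200, rose from 148.4, 151.9 and 152.2 CPM to 229.1, 216.5 and 223.1 CPM (a log2 change of 0.56, SE 0.04, and edgeR adjusted p = 4.82e-06). The partners Psme1 and Psme2 form the interferon-inducible cap PA28. Psme1 was at 57.5, 72.1 and 60.5 CPM in WT and 56.6, 64.5 and 66.8 CPM in KO, where the groups overlapped (a log2 change of -0.02, SE 0.10, and edgeR adjusted p = 0.893). Psme2 fell from 105.7, 122.7 and 108.8 CPM to 74.2, 79.3 and 86.4 CPM (a log2 change of -0.49, SE 0.08, and edgeR adjusted p = 5.93e-04). Psmf1, the inhibitor PI31, fell from 50.8 ± 2.53 to 40.8 ± 3.18 CPM (SD, n = 3 each; log2 fold change -0.32, edgeR adjusted p = 0.00607).

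A pair of members are uncertain as proteasome genes. Psme2b, named as a copy of Psme2, was at 14.6, 12.9 and 15.1 CPM in WT and 1.82, 2.55 and 1.78 CPM in KO (a log2 change of -2.79, SE 0.18, and edgeR adjusted p = 1.78e-06). Its annotation lies over 2 other genes of the same strand, Gm12185 and 9930111J21Rik1, of which the latter fell from 58.9 ± 3.35 to 13.5 ± 1.57 CPM (SD, n = 3 each), and reads may be split between these genes and Psme2. Psmc3ip shares the name pattern only. It encodes a cofactor of meiotic recombination and was at 19.9, 20.5 and 23.6 CPM in WT and 4.81, 4.11 and 2.89 CPM in KO (a log2 change of -2.44, SE 0.19, and edgeR adjusted p = 6.62e-06). Without both genes 32 of 46 tested members were lower and 9 higher, with a median log2 fold change of -0.58. Of the 4 proteasome pseudogenes in the table, 3 had 0 counts in all libraries and Psmb7-ps2 had at most 0.19 CPM.

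Most proteasome partners with other names were lower as well. Of 10 tested partners 7 were lower and 1 higher in KO, against 34.2% and 35.1% of all tested genes, with a median log2 fold change of -0.57. Adrm1, the ubiquitin receptor RPN13, fell from 151.9 ± 5.62 to 71.95 ± 1.48 CPM and Ipo9, an importin that carries proteasomes into the nucleus, from 316.1 ± 8.81 to 177.5 ± 1.21 CPM (SD, n = 3 each; edgeR adjusted p = 2.68e-07 and 3.39e-07). Sem1, the smallest lid subunit, fell by 0.97 on the log2 scale. Zfand5, which stimulates the proteasome, rose from 107.0 ± 4.84 to 207.5 ± 7.57 CPM. Pomp, the maturation factor of the 20S core, was at 60.8 ± 5.45 CPM in WT against 58.9 ± 5.25 CPM in KO (edgeR adjusted p = 0.669).

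Of 10 genes that regulate proteasome transcription 4 were higher and 4 lower, close to the 35.1% higher and 34.2% lower of all tested genes, with a median log2 fold change of -0.06 beside 0.03. Nfe2l1, whose product NRF1 drives proteasome genes when the proteasome is inhibited, was at 148.3, 172.4 and 161.6 CPM in WT and 159.9, 157.1 and 141.2 CPM in KO. The groups overlapped and the test was not passed (a log2 change of -0.07, SE 0.07, and edgeR adjusted p = 0.382), although it was with scaling by total counts (-0.21, adjusted p = 0.0387). Ddi2, the protease that activates NRF1, fell by 0.50 on the log2 scale. Nfyb and Nfyc, subunits of the factor that binds CCAAT boxes, fell from 63.3 ± 4.90 to 27.9 ± 0.99 CPM and from 47.0 ± 2.95 to 26.5 ± 0.13 CPM, while Nfya was at 58.6 ± 3.45 and 56.6 ± 14.6 CPM (SD, n = 3 each; edgeR adjusted p = 0.821). Foxo3 and Stat3 rose by 1.18 and 0.74 on the log2 scale.

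Of 16 tested genes on the interferon gamma route to the immunoproteasome and on peptide transport, 10 were higher and 3 lower, against 35.1% and 34.2% of all tested genes, with a median log2 fold change of 0.30. The receptor chain Ifngr2 rose from 43.9 ± 2.18 to 94.03 ± 2.57 CPM and the kinase Jak2 from 67.9 ± 1.06 to 140.2 ± 13.98 CPM (SD, n = 3 each). Nlrc5, the transactivator of MHC class I genes, fell from 51.8, 47.3 and 45.7 CPM in WT to 9.26, 9.68 and 9.11 CPM in KO (a log2 change of -2.37, SE 0.08, and edgeR adjusted p = 6.07e-08). Irf9, a transcription factor of the interferon response, fell by 0.42 on the log2 scale. Irf1, which activates the immunoproteasome genes, was at 34.6, 37.4 and 34.5 CPM in WT and at 62.7, 66.6 and 29.0 CPM in KO. KO replicate 3 lay below the WT libraries and the other 2 above, and the test was not passed (edgeR adjusted p = 0.156), while without KO replicate 3 the log2 fold change was 0.87 (adjusted p = 4.49e-05). Psmb8 was at 10.3 CPM in that library and at 9.67 and 13.3 CPM in the other 2 KO libraries.

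Among 15 genes of ubiquitin supply and delivery 9 were lower and 3 higher, against the same 34.2% and 35.1%, with a median log2 fold change of -0.32. The shuttle factors Rad23b and Ubqln4, which bring ubiquitin-tagged proteins to the proteasome, fell from 586.8 ± 10.8 to 187.9 ± 6.81 CPM and from 187.1 ± 8.88 to 50.4 ± 2.65 CPM (SD, n = 3 each; edgeR adjusted p = 1.39e-08 and 3.96e-08). Vcp, the ATPase that extracts tagged proteins, rose by 0.33 on the log2 scale.

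Leukocytes express much of the immunoproteasome, so their markers are given beside Psmb8 and Psmb10. Of 14 leukocyte markers 6 had 0 counts in all libraries, among them the pan-leukocyte gene Ptprc and the macrophage gene Adgre1, and 4 were tested. Summed over all 14 markers, the level was 14.8 to 16.2 CPM in WT and 6.15 to 7.81 CPM in KO. Of those tested, Lyz2 fell from a WT mean of 8.54 to a KO mean of 0.213 CPM and Coro1a from 5.74 to 0.866 CPM. Lyz2 and Coro1a made up most of the WT sum. Csf1r rose from a mean of 0.157 to 3.29 CPM (20.8-fold) and Cd68 from 1.08 to 2.23 CPM (2.06-fold). The summed level of 6 fibroblast markers was 874.7 to 1026 CPM in WT and 10600 to 11480 CPM in KO, where 5 were higher. Col1a1, with a mean of 845.9 CPM, made up most of the WT sum and rose 6.07-fold. Pdgfra rose 14.1-fold, Dcn 55.2-fold and Col3a1 1228-fold, the last from a mean of 3.03 to 3712 CPM. Lum had 0 counts in every WT library and a KO mean of 6.18 CPM. Only Pi16 did not pass (edgeR adjusted p = 0.413). For 6 endothelial markers the sum was 3.29 to 3.62 CPM in WT and 1.58 to 1.93 CPM in KO, where 1 of the 4 tested was higher and 3 lower. Whether both groups hold the same kinds of cells was not tested, nor was the part of these marker differences in the proteasome results.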

How the data were processed

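RNA sequencing of 6 samples was used, 3 KO and 3 WT, grouped and numbered by their titles. The authors deposited a table of raw counts and of FPKM by Ensembl gene, per the file headers. The tools named in the submitters' processing notes are HISAT2, SAMtools 1.3.1, CASAVA 1.8 and edgeR, with GRCm39 as the build. Neither the labels nor the headers state which program counted the reads, its strand setting or the annotation. Of the 56393 genes 55480 (98.38%) were matched by Ensembl ID to GENCODE M21, an annotation of GRCm38 used for symbols, biotypes, chromosomes and overlaps. Promoters came from RefSeq on GRCm38.p6, matched by symbol, with the first entry used where a gene had 2.

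Genes were filtered with filterByExpr by group, scaled with TMM factors (0.952 to 1.06) and compared between KO and WT by a quasi-likelihood F test (edgeR 4.0.16, robust option, R 4.3.3) without covariates, with Benjamini-Hochberg adjustment over all 18732 tested genes at 0.05. The SE is the absolute log2 fold change over the square root of F. CPM and FPKM are given as mean ± SD over 3 libraries. The test was also run on simulated counts in which few genes changed. That run does not cover data in which 69.3% of the tested genes were called, as here. Counts of replicates varied beyond sampling noise (23.0 to 35.8 chi-square units per degree of freedom). Every library was treated as 1 sample, although this spread cannot show that the libraries came from separate cultures or animals. Alternatives were scaling by total counts, DESeq2 1.42.0, limma-voom (limma 3.58.1), limma on log2(FPKM + 0.1), other filters (none, or at least 50 counts in every library of a group), autosomal genes only, an adjusted p under 0.01, omission of each library in turn and a block on the replicate number.

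The members, lists, motifs and tests were chosen with earlier results of these data known. Named with full values were the catalytic subunits, the alternative caps, the members of each role with the highest and lowest log2 fold change, the members not tested, and from each list of partners up to 2 genes in each direction with the smallest adjusted p, plus Pomp, Nfe2l1, Tap1 and Irf1. Some genes that the rule names are not reported here. Other genes named, among them Psmd14, Ddi2, Sem1 and Nfya, were chosen after their values were seen. Paaf1, on the partner list, was not matched.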

Additional observations from a re-analysis of the deposited data

How the results depend on the processing

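Of the members 8 to 9 were higher in KO in the alternatives except limma on the deposited FPKM (7) and the stricter filter (10), and 32 to 35 were lower in every alternative, including scaling by total counts, DESeq2, limma-voom, autosomal genes only and an adjusted p under 0.01. Leaving out each library gave 9 higher in each case and 33 to 35 lower. Of the 34 lower calls 33 and of the 9 higher calls 7 were made in every fit, the exceptions being Psma3, Psma6 and Psmd13. The ratio of immunoproteasome to constitutive catalytic subunits differed between KO and WT by 1.41 on the log2 scale, by 1.40 to 1.43 without any one library (an alternative added after the data had been seen) and by 1.22 from the deposited FPKM.

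With the replicate block 9 members were higher and 33 lower. Same-numbered libraries of KO and WT did not deviate together (correlations of -0.024, 0.018 and -0.009). No shared effect of the number was thus seen, but these values cannot show that the numbers pair no cultures or batches.

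The log2 fold change changed sign only in genes that had not passed the test, apart from Psmd13 from the deposited FPKM (-0.138). These were Psmd1 with scaling by total counts (-0.024) and from FPKM (-0.027), Psmd6 with scaling by total counts (-0.097) and from FPKM (-0.078), Psmd10 with the replicate block (0.001) and the stricter filter (0.015), and Psme1 with the stricter filter (0.003). Without one library at a time the values ran from -0.022 to 0.068 for Psmd6, from -0.077 to 0.086 for Psmd10, from -0.072 to 0.085 for Psme1 and from -0.112 to 0.02 for Pomp. The cause was not tested. Depth did not limit the core subunits, while Psmb8 in WT rested on 59 to 66 counts a library.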
